A study of Mus musculus with 6 samples.

Results

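The synaptonemal complex and the HORMA domain proteins of the meiotic chromosome axis were followed through 10 genes, taken by name from the 54532 genes of the deposited table. Sycp2, Sycp3, Hormad1 and Hormad2 encode proteins of the axis, Sycp1 encodes the transverse filament, and Syce1, Syce2, Syce3, Tex12 and 4930447C04Rik (the table's name for Six6os1) encode the central element. RNA was sequenced from mouse testis cells labelled STRA8+, in 3 libraries of the genotype Cre (controls) and 3 of the genotype knockout, which the titles call cKO. The removed gene is not named by the labels, nor do they say if the knockout also carries Cre; the study's title concerns BCAS2 and hnRNPH1 in splicing, break repair and synapsis in prophase I. No source used here gives the strain, the age, the promoter of the Cre transgene or whether libraries came from separate animals. The p-values therefore reflect only how far libraries of a group spread, and that spread may be technical. Bcas2, a splicing factor gene, measured 19.8, 19.3 and 20.5 FPKM in control replicates 1 to 3 against 4.78, 4.38 and 5.40 FPKM in knockout replicates 1 to 3. Hnrnph1 measured 61.2, 67.5 and 62.7 FPKM against 129, 156 and 136 FPKM.

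During meiotic prophase, each pair of sister chromatids is organised along a protein axis built on cohesin, and SYCP2 and SYCP3 join that axis. HORMAD1 and HORMAD2 bind axes that are not yet synapsed and are removed as synapsis proceeds. SYCP1 then links the axes of homologous chromosomes like the teeth of a zipper, and the central element proteins hold the SYCP1 heads together in the midline. In the mouse testis these genes are switched on as germ cells enter meiosis, and loss of central element proteins blocks synapsis and male fertility.

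The 10 genes did not move together. As deposited, 4 rose in the knockout (Sycp3, Hormad2, Tex12 and 4930447C04Rik) and 4 fell (Sycp2, Syce1, Syce2 and Syce3, of which Sycp2, Syce2 and Syce3 had the other sign under at least 1 other scaling), while Hormad1 and Sycp1 did not pass the test. Among all 16791 genes tested, 86.6% were called at an adjusted p of 0.05 by limma, 36.2% higher and 50.4% lower, so these counts are close to the background. The central element held both extremes: Syce1 went from a control mean of 302 FPKM to a knockout mean of 64.8 FPKM, while 4930447C04Rik went from 9.14 to 43.8 FPKM. All 10 genes had a mean of at least 1 FPKM and were tested, and each value rests on 213 to 12526 reads. The median log2 fold change of the 10 was -0.09, beside -0.41 for all genes tested, on the scale of log2(FPKM + 0.5), knockout minus control.

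The direction of part of these changes depends on how the libraries are set against each other. The library divisor in the deposited FPKM was 0.691 to 0.774 times the library's reads in the controls and 1.37 to 1.42 times in the knockout, so FPKM set knockout values lower than shares of reads do. The 10 genes together summed to 989.7 ± 53.9 FPKM in control and 711 ± 119 FPKM in knockout libraries (SD, n = 3 each), yet their share of all reads was 0.168 ± 0.0160% in control and 0.253 ± 0.0390% in knockout libraries. Rescaling reads to 1000000 per library, rescaling FPKM to sum to 1000000, or quantile normalization raised the median of all genes by 0.83, 1.12 and 0.94 on the log2 scale. All genes then split into 8491, 9109 and 8745 called higher and 6527, 6084 and 6187 called lower, against 6075 and 8462 as deposited. Under those 3 scalings 8 of the 10 genes were called higher. Syce1 was lower, and 4930447C04Rik, Tex12, Hormad2 and Sycp3 were higher, under each of the 5 scalings run. Sycp1, Sycp2 and Syce2 changed sign between them, and Syce3 changed sign under quantile normalization. The 5th scaling, by a median ratio per library, stayed near the deposited one and raised the median of all genes by 0.04. It left 4 of the 10 genes called higher and 4 lower, with Sycp1, Sycp2 and Syce2 at -0.36, -0.54 and -0.38. Values below are as deposited unless another scaling is named.

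**Figure D1:**
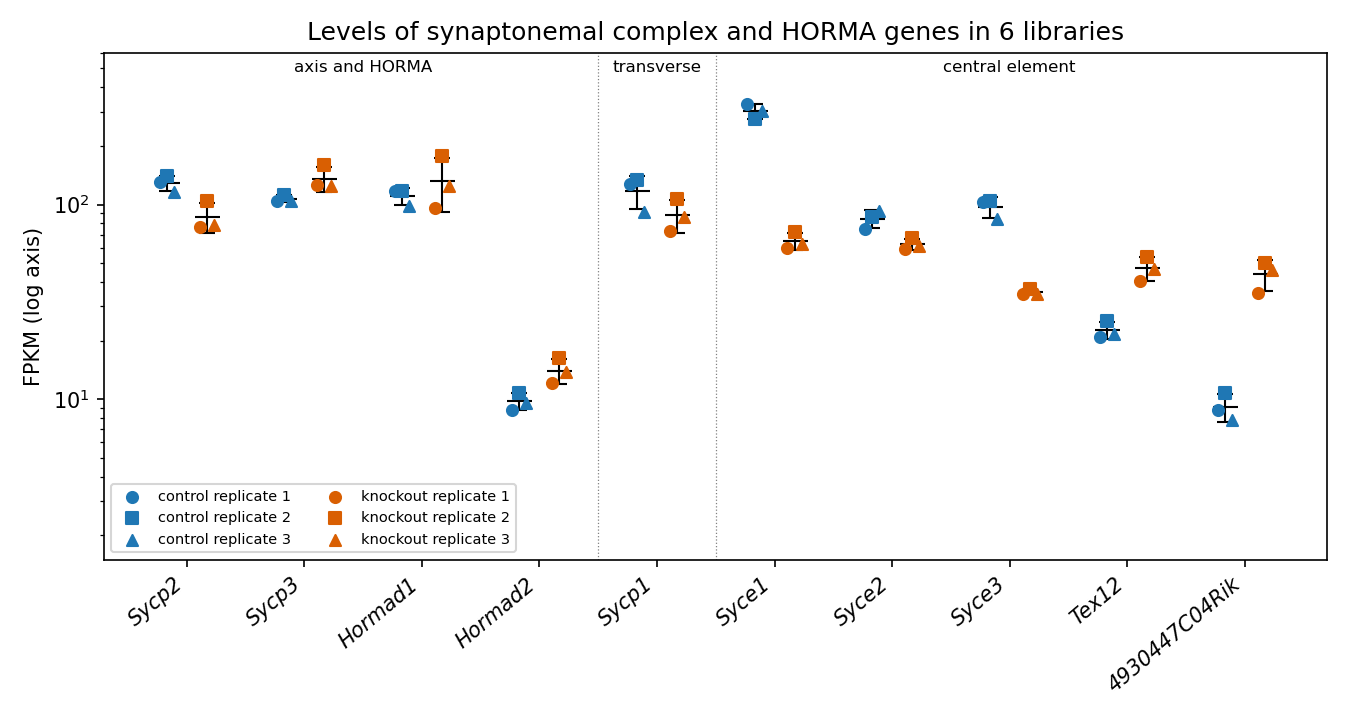
Level of each gene in FPKM (log axis) in the 3 control libraries (blue) and the 3 knockout libraries (orange), with the group mean and SD in black. The control and knockout points of Syce1, Syce3, Tex12 and 4930447C04Rik lie far apart, those of Hormad1 and Sycp1 overlap, and knockout replicate 2 (square) is the highest knockout library for all 10 genes.

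The start regions of the genes were read for short motifs, as a description of what these germ cell genes share besides their role. All 10 genes matched the RefSeq promoter windows of GRCm38.p6, the assembly of mm10, which run from 250 bases before to 50 after a start. The 120 bases upstream of the start are shown for Sycp3, Hormad1 (the first of its 2 windows), Sycp1, Tex12 and Syce2 (the second of its 2 windows), where they hold an E-box, for Syce1, which fell most, and for 4930447C04Rik, which rose most. Capitals mark matches, on either strand, to CNCCTCAG (the motif of the meiotic activators STRA8 and MEIOSIN), TCCCGC (the core of the E2F6 site), TGACGTCA (the cAMP response element), AACNGNC (MYB factors) and CACGTG (the E-box). A match that runs over the start is cut there.
Sycp3: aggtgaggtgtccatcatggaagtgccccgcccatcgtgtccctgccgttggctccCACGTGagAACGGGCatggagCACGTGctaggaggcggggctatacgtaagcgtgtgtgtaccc
Hormad1: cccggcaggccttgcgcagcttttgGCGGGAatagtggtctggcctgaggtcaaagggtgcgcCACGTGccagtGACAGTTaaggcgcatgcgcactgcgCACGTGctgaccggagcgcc
Sycp1: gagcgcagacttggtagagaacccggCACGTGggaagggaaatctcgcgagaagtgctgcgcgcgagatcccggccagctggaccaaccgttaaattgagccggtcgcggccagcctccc
Tex12: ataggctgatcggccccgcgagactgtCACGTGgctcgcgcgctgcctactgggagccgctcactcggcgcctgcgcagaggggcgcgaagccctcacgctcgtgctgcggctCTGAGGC
Syce2: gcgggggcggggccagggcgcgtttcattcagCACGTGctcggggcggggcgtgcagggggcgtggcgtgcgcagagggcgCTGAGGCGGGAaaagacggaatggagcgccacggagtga
Syce1: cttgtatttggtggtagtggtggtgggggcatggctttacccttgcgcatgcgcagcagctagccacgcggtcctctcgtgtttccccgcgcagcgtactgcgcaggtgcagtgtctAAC
4930447C04Rik: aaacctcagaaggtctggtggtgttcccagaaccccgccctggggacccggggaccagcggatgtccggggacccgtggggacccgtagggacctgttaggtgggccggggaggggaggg

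In order, these stretches are chr10:88459467-88459586 on the plus strand, chr3:95559557-95559676 on the plus strand, and chr3:102936101-102936220, chr9:50561269-50561388 on the minus strand, chr8:84872138-84872257 on the plus strand, and chr7:140787855-140787974 and chr12:72917766-72917885 on the minus strand. The STRA8-MEIOSIN letters were found in the windows of 5 of the 10 genes (Hormad2, Sycp1, Syce2, Tex12 and 4930447C04Rik), beside 9.12% of all 27025 genes with a window. In 4930447C04Rik and Sycp1 those matches lie after the start, and the RefSeq start of 4930447C04Rik lies inside the deposited span of the gene. The E2F6 core was in 5 of 10 (22.0% of all genes), the MYB letters in 6 of 10 (36.0%), and the cAMP response element in none of the 10 (2.03%). The E-box was added after the sequences were read: it was in 6 of 10 genes (Sycp3, Hormad1, Sycp1, Syce2, Tex12 and 4930447C04Rik), beside 8.09% of all genes. As it was picked from these same sequences, its share cannot be weighed like those of the other motifs. The letters overlap in Syce2, where a STRA8-MEIOSIN match and an E2F6 match share bases. These matches are descriptions of sequence, and no binding was measured.

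Among the axis genes, Sycp3 (ENSMUSG00000020059), which encodes the lateral element protein that forms fibres along the axis, was modestly higher in the knockout. It measured 104, 112 and 105 FPKM in control replicates 1 to 3, then 125, 159 and 124 FPKM in knockout replicates 1 to 3. Every knockout library lay above every control library. The log2 fold change was 0.34 ± 0.114 (SE), with a limma adjusted p of 0.0237. Leaving out control replicate 1, control replicate 3 or knockout replicate 2 ended the call, at adjusted p of 0.0670, 0.0689 and 0.0731 by limma. Sycp3 was the 5th highest of the 10 genes in the controls and the highest in the knockout, where its libraries overlapped those of Hormad1. The gene lies on chromosome 10 at 88459569 to 88473236 (mm10, plus strand), inside the span of Chpt1 on the other strand, with control and knockout means of 17.9 and 6.997 FPKM.

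Sycp2 (ENSMUSG00000060445, chromosome 2, 178345293 to 178407685, minus strand), whose product pairs with SYCP3 in the lateral element, had the opposite sign as deposited. Its level was 130.0, 140.1 and 116 FPKM in the controls, beside 76.4, 104 and 78.8 FPKM in the knockout. The groups did not overlap. The log2 fold change of -0.58 ± 0.137 (SE, limma adjusted p of 0.00410) became 0.33 with reads rescaled (adjusted p of 0.0471), 0.60 with FPKM rescaled (0.00412) and 1.03 with quantile normalization (2.10e-04).

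The HORMA genes sat at very different levels. Hormad1 (ENSMUSG00000028109, chromosome 3, 95559677 to 95587671, plus strand), required for break formation and for homologue pairing, gave 117, 117 and 97.7 FPKM over the controls and 96.2, 177 and 124 FPKM over the knockout. Knockout replicate 1 was below every control and knockout replicate 2 was above them, so the groups overlapped, and the log2 fold change of 0.22 ± 0.208 did not pass (limma adjusted p of 0.336). Without knockout replicate 2 it was -0.01, whereas with reads rescaled it was 1.14 (adjusted p of 9.48e-04). Hormad2 (ENSMUSG00000020419, chromosome 11, 4345814 to 4441105, minus strand), which acts in the surveillance of unsynapsed axes, was far less abundant. It measured 8.85, 10.8 and 9.59 FPKM in control and 12.1, 16.3 and 13.7 FPKM in the knockout. All knockout libraries were above all controls, with a log2 fold change of 0.50 ± 0.134 and a limma adjusted p of 0.00818, and it was called in each of the 6 fits that left out a library.

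Sycp1 (ENSMUSG00000027855, chromosome 3, 102818499 to 102936100, minus strand), the only transverse filament gene, did not pass the test as deposited. Its libraries gave 127, 134 and 91.8 FPKM for the controls and 73.3, 107 and 85.8 FPKM for the knockout. The lowest control, replicate 3, lay below knockout replicate 2, so the groups overlapped. The log2 fold change was -0.41 ± 0.183 (limma adjusted p of 0.0681), next to the median of all genes tested. The call moved with single choices: the adjusted p was 0.0192 without control replicate 3, 0.0243 without knockout replicate 2, 0.0389 with limma voom on recovered reads and 0.0484 with the replicate number as a block. Rescaled reads turned the sign, to 0.51 with an adjusted p of 0.0266.

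Syce1 (ENSMUSG00000025480), a central element protein that binds SIX6OS1 and SYCE3, had the largest fall among the 10 genes. It was the most abundant of them in the controls, at 329, 276 and 301 FPKM, and measured 59.6, 72.0 and 62.7 FPKM in the knockout, a control mean 4.67 times the knockout mean. No knockout library came near the lowest control. The log2 fold change was -2.22 ± 0.108 with a limma adjusted p of 3.88e-07, and it was -0.56 under quantile normalization and -1.03 with FPKM rescaled, with an adjusted p of 5.46e-04 and 1.39e-05 by limma. Of all genes tested, 28.9% had an equal or lower fold change, so a fall of this size was common. Syce1 (chromosome 7, 140777229 to 140787852, minus strand) took 30.6 ± 2.98% of the summed FPKM of the 10 genes in the controls and 9.17 ± 0.595% in the knockout.

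4930447C04Rik (ENSMUSG00000021098), whose product SIX6OS1 forms a complex with SYCE1, went the other way. The controls held 8.84, 10.8 and 7.80 FPKM, the lowest mean of the 10 genes, and the knockout 35.1, 50.3 and 46.0 FPKM. Each knockout library lay far above the highest control. The log2 fold change was 2.20 ± 0.165 with a limma adjusted p of 5.36e-06, between 2.20 and 3.41 over the 5 scalings, and it ranked at the 97.3th percentile of all genes tested. The gene spans chromosome 12 from 72881109 to 72940774 on the minus strand and overlaps Six6 on the plus strand at its 5′ end, where Six6 had group means of 0.00675 and 0.0272 FPKM.

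Syce3 (ENSMUSG00000078938, chromosome 15, 89390174 to 89410503, minus strand), a small central element protein that recruits SYCE1 to the SYCP1 midline, fell together with Syce1 as deposited. The values were 104, 105 and 83.8 FPKM in control and 34.7, 37.0 and 34.8 FPKM in knockout replicates. The 3 knockout libraries were nearly equal and all far below the controls. The log2 fold change of -1.44 ± 0.107 (limma adjusted p of 5.07e-06) was -0.52 with reads rescaled, -0.26 with FPKM rescaled (adjusted p of 0.0418) and 0.04 under quantile normalization (0.710).

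Syce2 and Tex12 encode partners that form the fibrous backbone of the central element, and their messages diverged. Syce2 (ENSMUSG00000003824, chromosome 8, 84872111 to 84888221, plus strand) measured 74.9, 86.3 and 92.5 FPKM in control and 59.4, 67.4 and 61.1 FPKM in the knockout, without overlap. Its log2 fold change was -0.43 ± 0.105 (limma adjusted p of 0.00534), beside a median of -0.41 for all genes, and it became 0.49 to 1.11 under the 3 scalings that raised that median. Tex12 (ENSMUSG00000032065, chromosome 9, 50556819 to 50561325, minus strand) measured 20.9, 25.3 and 21.7 FPKM in control and 40.7, 53.9 and 46.8 FPKM in the knockout. All its knockout libraries were above its controls, with a log2 fold change of 1.04 ± 0.128 and a limma adjusted p of 9.98e-05, and this rose to 1.94 to 2.24 under the same 3 scalings. Tex12 lies within Il18 on the other strand (1.95 and 2.28 FPKM), and the end of Syce2 overlaps Gcdh on the other strand (3.01 and 4.92 FPKM). Whether counting used strand is not stated in the sources used here.

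**Figure D2:**
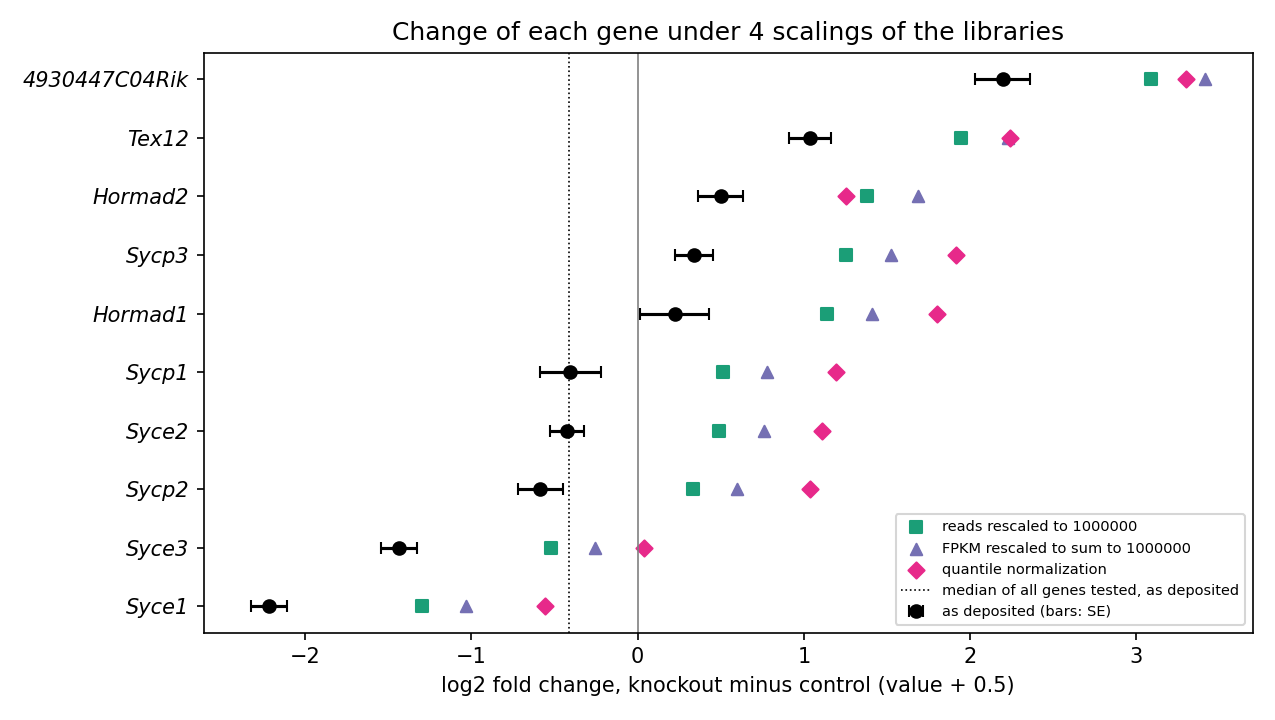
Log2 fold change (knockout minus control) of each gene as deposited, with its SE, and under 3 other scalings, ordered by the deposited value. Syce1 stays below 0 and the upper 5 genes stay above 0 in each scaling drawn, while Sycp1, Syce2 and Sycp2 cross 0, and Syce3 reaches 0.04 under quantile normalization.

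Groups of libraries did not overlap for 8 of the 10 genes, beside 88.0% of all genes tested. The ranking of levels was rearranged among the central element genes. In the controls Syce1 stood above all others without overlap, Sycp2, Sycp1, Hormad1, Sycp3, Syce3 and Syce2 followed with each neighbouring pair overlapping, and Tex12, Hormad2 and 4930447C04Rik came last. In the knockout Sycp3, Hormad1, Sycp1 and Sycp2 led with overlapping neighbours, Syce1 and Syce2 overlapped at 64.8 and 62.7 FPKM, and Tex12, 4930447C04Rik and Syce3 followed. Hormad2 was last there, at 14.0 ± 2.12 FPKM.

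A ratio of 2 genes inside a library does not move when all its values are multiplied by 1 factor, though quantile normalization can move it, so 6 ratios between proteins that bind or act together were compared. The largest shift was that of Syce1 to 4930447C04Rik. It was 37.2, 25.7 and 38.6 in control replicates 1 to 3 and 1.70, 1.43 and 1.36 in the knockout replicates, a difference of -4.41 in log2 of FPKM + 0.5. The Syce1 message went from a large excess over that of its partner to near parity per length. Syce2 to Tex12 went from 3.75 ± 0.448 to 1.34 ± 0.109 (log2 difference -1.46). Syce1 to Syce3, which both fell, went from 3.14 ± 0.480 to 1.82 ± 0.116 (-0.78). Sycp1 to Syce3 went from 1.20 ± 0.0957 to 2.49 ± 0.387 (1.03), and Sycp2 to Sycp3 from 1.20 ± 0.0817 to 0.633 ± 0.0222 (-0.92). These 5 ratios separated the groups completely, with an exact two-sided permutation p of 0.1 each, the smallest that 20 splits of 3 against 3 allow, and 0.12 after Benjamini-Hochberg adjustment over the 6. Of single genes tested, 88.0% also separated the groups, and the share among other pairs of genes was not computed. Hormad1 to Hormad2 overlapped, at 11.4 ± 1.58 and 9.30 ± 1.47 (log2 difference -0.28, exact permutation p of 0.3, adjusted 0.3), and its difference turned to 0.54 under quantile normalization. The other 5 kept their sign there, with Syce1 to 4930447C04Rik at -3.85 and Syce2 to Tex12 at -1.13.

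**Figure D3:**
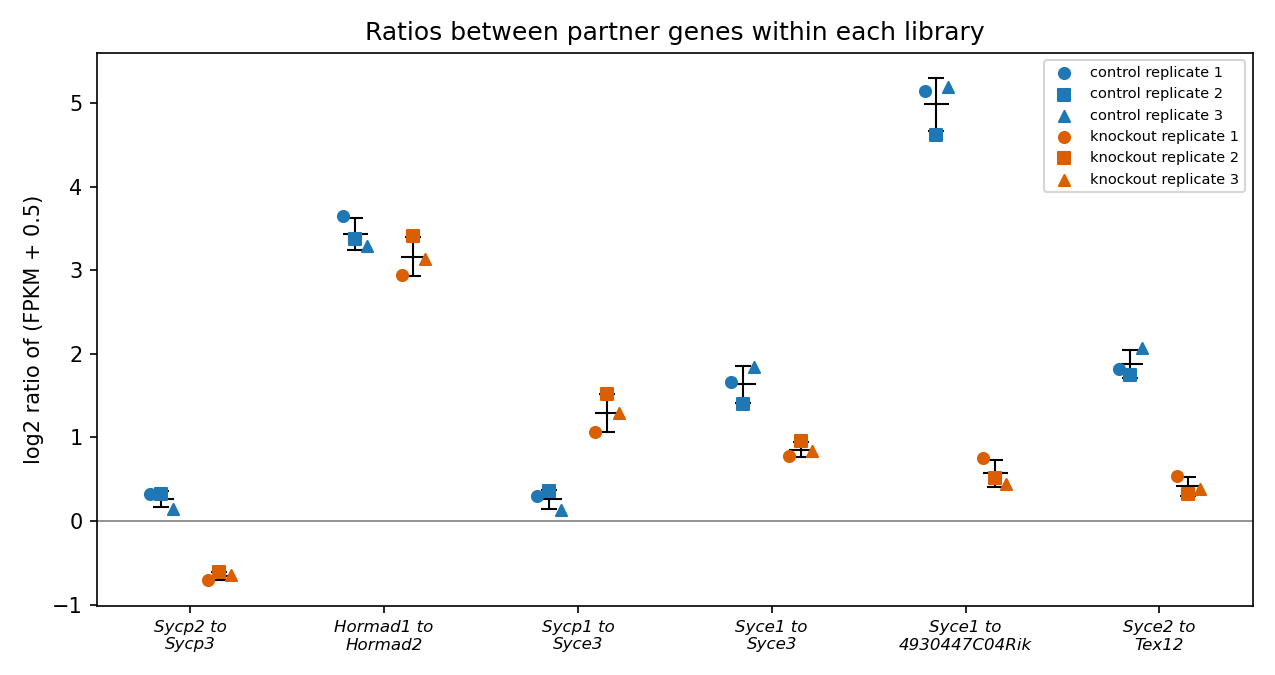
Log2 ratio of (FPKM + 0.5) between 6 pairs of genes, 1 point per library, with the group mean and SD in black. Control and knockout libraries separate for 5 pairs, most widely for Syce1 to 4930447C04Rik, and overlap for Hormad1 to Hormad2.

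Knockout replicate 2 was the highest of the 3 knockout libraries for all 10 genes, whereas it was highest for 36.1% of all genes tested. Control replicate 2 was the highest control for 8 of the 10, beside 25.8% of all genes. The sum over the 8 leptotene and zygotene markers was also highest in those libraries. It was 307 FPKM in knockout replicate 2 against 247 in both other knockout libraries, and 142 FPKM in control replicate 2 against 129 and 125. The peritubular sum was highest in the same libraries, at 35.4 FPKM in knockout replicate 2 and 29.7 FPKM in control replicate 2. Pachytene, spermatid and erythroid sums were highest in knockout replicate 2 but not in control replicate 2. The sums of the remaining marker lists were highest in another knockout library. The part of this in the results was not tested.

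Genes that build the axis or act on it also went in both directions. Of 9 cohesin genes tested, which encode the rings the axis assembles on, 6 rose and 3 fell, with a median log2 fold change of 0.99. Among all genes tested, 36.2% were called higher and 50.4% lower, with a median of -0.41. Rad21l, a kleisin subunit of meiotic cohesin, rose from 5.96 ± 2.45 to 43.4 ± 6.95 FPKM (2.82, limma adjusted p of 1.47e-05), and Rad21 and Smc3 rose by 1.10 and 0.99. Rec8, the other meiotic kleisin, went from 38.9 ± 5.06 to 11.7 ± 0.708 FPKM (-1.68, adjusted p of 2.84e-06) and was lower under each of the 5 scalings. With reads or FPKM rescaled, 7 cohesin genes were higher and 1 lower. Among all genes, 50.6% and 54.2% were then called higher and 38.9% and 36.2% lower.

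Of 13 partners and regulators of the axis, 12 were tested, and 6 rose and 5 fell, with a median of 0.40. The shares of all genes tested, for this list and the next, were 36.2% higher and 50.4% lower. Hspa2, a testis chaperone needed to take the complex apart, fell from 738 ± 51.1 to 38.4 ± 6.50 FPKM (-4.26, limma adjusted p of 2.92e-08). Syce1l, a gene related to Syce1, fell from 19.6 ± 1.94 to 1.03 ± 0.222 FPKM (-3.72, adjusted p of 8.84e-08), and Mad2l1bp, a cofactor of the TRIP13 ATPase that remodels HORMA proteins, fell by 2.20 on the log2 scale. Brca1, which acts at unsynapsed axes, rose by 1.42. With reads or FPKM rescaled, 9 of these partners were higher and 3 lower. The shares of all genes were then 50.6% and 54.2% higher and 38.9% and 36.2% lower. Sycp2l, related to Sycp2, was below the level tested, at 0.0786 and 0.0683 FPKM. Of 9 crossover factors, which work on the synapsed axis, 6 rose and 1 fell, with a median of 0.85. Tex11 rose from 8.89 ± 1.62 to 45.3 ± 6.63 FPKM (2.29, limma adjusted p of 2.94e-06), and Msh5 and AI481877 (Shoc1) rose by 1.16 and 1.49. With reads or FPKM rescaled, 8 crossover factors were higher, beside 50.6% and 54.2% of all genes.

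**Figure D4:**
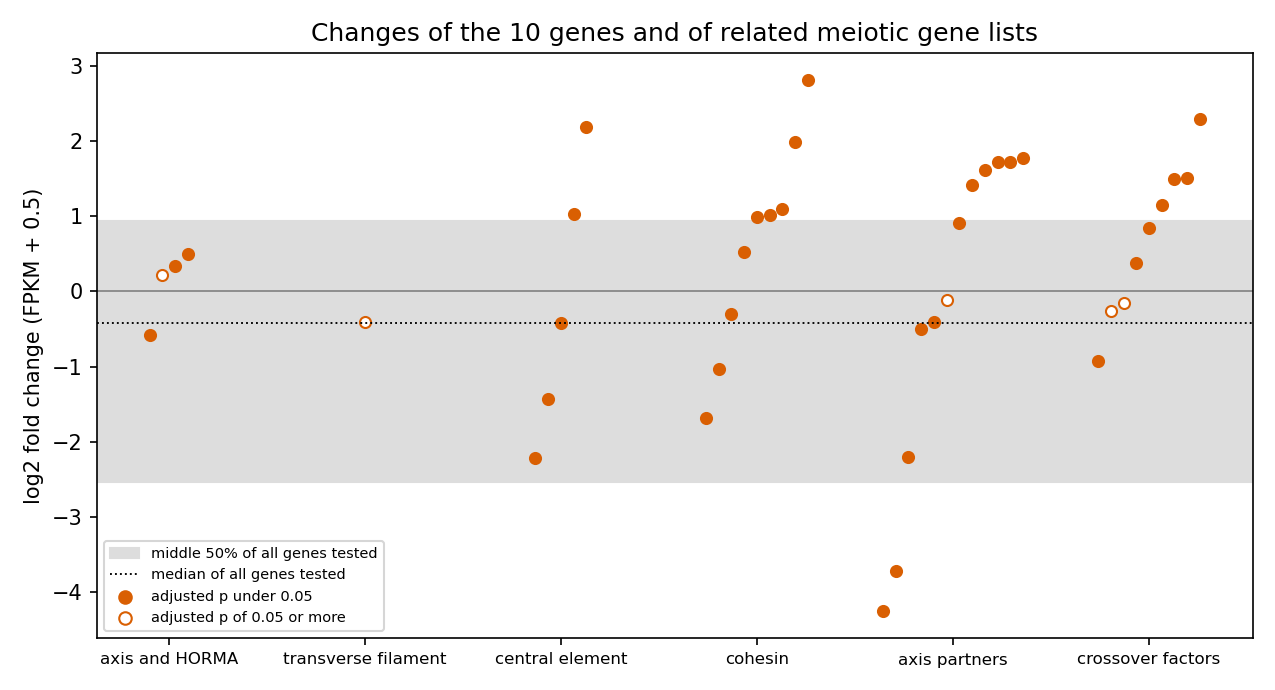
Log2 fold change of each gene tested, as deposited, for the 10 genes by role and for the cohesin, axis partner and crossover lists, with filled points called at an adjusted p under 0.05. The grey band is the middle 50% of all genes tested; the central element points span from -2.22 to 2.20, wider than the axis and HORMA points, which span from -0.58 to 0.50.

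For each of the 10, the gene of these 3 lists (30 tested) with the closest centred log2 profile over the 6 libraries was found by Euclidean distance. 4930447C04Rik lay nearest to Tex11 (0.204) and Tex12 nearest to Stag1 (0.115), a cohesin subunit. Sycp3, Hormad2 and Hormad1 all lay nearest to Ccnb1ip1, a ubiquitin ligase of crossover sites, at 0.165, 0.178 and 0.509. Syce1 lay nearest to Mad2l1bp (0.479), Syce3 to Rec8 (0.393), Sycp2 to Ankrd31 (0.221), Syce2 to Atr (0.214) and Sycp1 to Hfm1 (0.335).

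The levels of cell type markers differed widely between the groups. In such bulk samples fewer cells of a type and less RNA per cell cannot be told apart. As deposited, 36.2% of all genes tested were called higher and 50.4% lower. Stra8 itself measured 11.5, 22.6 and 17.02 FPKM in control and 125, 137 and 136 FPKM in knockout libraries. The summed level of 10 spermatid markers was 17902 to 20860 FPKM in control and 4.498 to 8.43 FPKM in the knockout, and all 10 fell. The 9 pachytene markers summed to 4315 to 5251 FPKM and 25.7 to 40.2 FPKM, and all 9 fell. The 8 leptotene and zygotene markers summed to 125 to 142 FPKM and 247 to 307 FPKM, with 7 higher. Of 10 spermatogonial markers, 8 rose and 1 fell (sums of 73.3 to 119 and 546 to 662 FPKM). All 7 Sertoli markers rose (93.1 to 180 and 322 to 538 FPKM), and 3 of 5 macrophage markers rose (26.1 to 40.5 and 44.0 to 135 FPKM, highest in knockout replicate 1). Of 5 Leydig markers tested, 1 was called higher and 3 lower as deposited. Leydig markers summed to 86.2 to 142 and 14.98 to 66.7 FPKM, peritubular to 12.8 to 29.7 and 19.1 to 35.4, erythroid to 8.91 to 20.2 and 4.32 to 12.5, and endothelial to 1.44 to 1.82 and 1.46 to 1.76. Retinas are named in the extraction text of the labels, against testis in the tissue field, and 6 photoreceptor markers summed to 1.21 to 1.80 and 1.64 to 1.92 FPKM, with Crx at 0 in all libraries. Mitochondrial genes took 1.28 to 1.89% of control reads and 4.52 to 5.37% of knockout reads. The part of these differences in the changes of the 10 genes was not tested.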

How the data were processed

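The submitters' processing notes name HISAT2 2.0.5 and the build mm10; no source used here gives the counter, annotation or strand setting. The authors deposited FPKM values for each gene and library. Multiplying by gene length and by 1 divisor per library, inferred from the values, gave whole reads for 100% of nonzero values (within 0.01 read), with 14532453 to 16963019 reads per library. Groups and replicate numbers came from the sample titles. A gene was tested if its mean reached 1 FPKM, and values were fitted on log2(FPKM + 0.5) with limma 3.58.1 (R 4.3.3, trended empirical Bayes), Benjamini-Hochberg adjusted over all 16791 genes, at a threshold of 0.05. The method was tested on simulated libraries with few changed genes and known divisors, so that test did not bear on the choice of scaling. Python 3.11.15, pandas 2.3.3, scipy 1.17.1 and matplotlib 3.10.9 made the ratios and figures. Ratios used exact permutation tests. The 10 genes and all lists were chosen with earlier results of these data known. Named are the 10 genes, Bcas2 and Hnrnph1, the 4 smallest p-values of each related list, and the nearest gene of each of the 10. One gene that this rule names is not reported here. Alternatives were other pseudocounts, filters, scalings, no trend, array weights, the replicate block, limma voom and leaving out each library. Mean ± SD is over 3 libraries, and the ± on a log2 fold change is its SE from limma.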

Additional observations from a re-analysis of the deposited data

How the results depend on the processing

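With reads rescaled to 1000000, FPKM rescaled to sum to 1000000 and quantile normalization, in that order, the genes of the 10 called higher numbered 8, 8 and 8 (4 as deposited) and those called lower 2, 2 and 1 (4 as deposited), with a median log2 fold change of 0.83, 1.10 and 1.22. The genes called lower were 1, 1 and 1 for cohesin, 3, 3 and 3 for axis partners, and 0, 0 and 1 for crossover factors. Under both rescalings, 0 crossover factors were lower at an unadjusted p under 0.05 by limma. With limma voom on the deposited scaling, 1 crossover factor was called lower. Of all genes tested, 50.6%, 54.2% and 52.1% were called higher and 38.9%, 36.2% and 36.8% lower under these 3 scalings. Among the genes named here, in the same order, the sign turned for Sycp1 (0.51, 0.78, 1.19), Sycp2 (0.33, 0.60, 1.03), Syce2 (0.49, 0.76, 1.11), Ankrd31 (0.39, 0.67, 0.33), Hfm1 (0.63, 0.91, 0.56) and Atr (0.49, 0.77, 0.60), and for Syce3 under quantile normalization (0.0396). Some genes of the related lists that are not named here turned sign too. The same 3 scalings raised the median of all genes tested by 0.83, 1.12 and 0.94, and quantile normalization does not move all genes by 1 amount. Scaling by a median ratio per library raised it by 0.04 only. The 10 genes then had 4 called higher and 4 lower, with a median of -0.04, and cohesin had 6 higher and 3 lower. The causes of the shifts of single genes were not tested. A filter at 5 FPKM left 3227 genes higher and 5320 lower because fewer were tested.

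Leaving out each library in turn gave 3 to 4 of the 10 higher, 4 to 5 lower, a median of -0.24 (without knockout replicate 2) to 0.0567 (without knockout replicate 1), 1 to 2 crossover factors lower, and -0.00799 (without knockout replicate 2) to 0.43 for Hormad1. The partner ratios were run with 2 other pseudocounts, without each library and, added after seeing the data, under 4 other scalings: 5 of the 6 differences kept their sign in these, and that of Hormad1 to Hormad2 turned to 0.54 under quantile normalization alone. No pairing by replicate number was seen: deviations of same-numbered libraries correlated at -0.12, -0.05 and -0.04, and those of the other pairs at -0.06 to 0.10. With 3 libraries per group this cannot exclude a paired design. With the replicate number as a block, 14294 genes were called against 14537, and Sycp1 passed at an adjusted p of 0.0484. Without a filter, Sycp3 missed at 0.0516.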
